A study of Mus musculus with 16 samples.

Results

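The genes described here are the 6229 whose transcripts were read more than 20 times in each of 4 libraries of ribosome-bound mRNA from mouse liver, out of 24539 genes in the deposited tables (25.4%). They held 95.9% to 96.7% of the reads of each of these libraries, and 6115 of them are protein coding in the RefSeq annotation. The livers came from male C57BL/6 mice that were put on a high-fat diet (HF) or on a high-fat diet with betaine (HB) when they were 8 weeks old, and that had reached 16 weeks after 8 weeks of feeding. Both groups received the high-fat diet, and no group on ordinary chow was analysed here. Ribosome-bound mRNA was taken from ribosome-nascent chain complexes pelleted through a sucrose cushion, and total polyadenylated mRNA and N6-methyladenosine (m6A) were measured in livers of the same 2 diet groups, with 2 libraries for each diet and kind. Per the labels, every mRNA and ribosome-bound library was a pool from 2 independent experiments, so the values and p-values measure the spread between pools and not between mice.

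Messenger RNA that is pelleted with ribosomes and their growing chains is read here as ribosome-bound mRNA, and not as a direct measure of translation. Of the genes described here, 105 are noncoding or pseudogenes in the annotation. Whether all RNA in the pellet was being translated was not tested. How much ribosome-bound mRNA a gene has depends on its mRNA level in the liver and on the share that carries ribosomes. Each ribosome-bound level is therefore given beside the level in total mRNA. Hepatocytes build fatty acids, triglycerides and cholesterol under the control of the sterol regulatory element binding proteins, and betaine passes a methyl group to homocysteine, which renews the methionine from which S-adenosylmethionine, the donor for m6A, is made.

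Depth was 5778439 and 6431510 reads for the HF ribosome-bound libraries, and 6508500 and 8659310 reads for those of HB. For total mRNA, HF depth was 11437462 and 11570775, whereas HB depth was 22492813 and 18011999. The TMM scaling factors for total mRNA were 1.11 and 1.10 in HF, against 0.93 and 0.88 in HB. Depth and scaling factor thus split by diet in total mRNA, and the part of depth in its calls was not tested. The 2 HB ribosome-bound libraries stood apart from every other pair. Over the 6229 genes the chi-square statistic between their counts, divided by its degrees of freedom, was 1.41, where repeated sampling of 1 library gives about 1, against 105 for the 2 HF ribosome-bound libraries, 66.6 for the HF mRNA pair and 191 for the HB mRNA pair. Only 5 genes (0.0803%) were more than 2-fold apart between the HB ribosome-bound libraries, whereas 2088 genes (33.5%) were between the HF ribosome-bound libraries and 2076 to 2129 were between an HF and an HB library. The standard deviation of the log2 difference was 0.174 in the HB pair, 1.14 in the HF pair and 1.11 to 1.15 across diets. The HB pair was therefore summed and counted as 1 library, which leaves the HB ribosome-bound level without a replicate. All 10 hepatocyte markers (Alb and Apob among them) were measured, with a summed level of 51623 to 69011 CPM (read counts scaled to library size) in the ribosome-bound libraries, whereas 10 or 11 of 11 lymphocyte markers in the table were at 0.

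**Figure D1:**
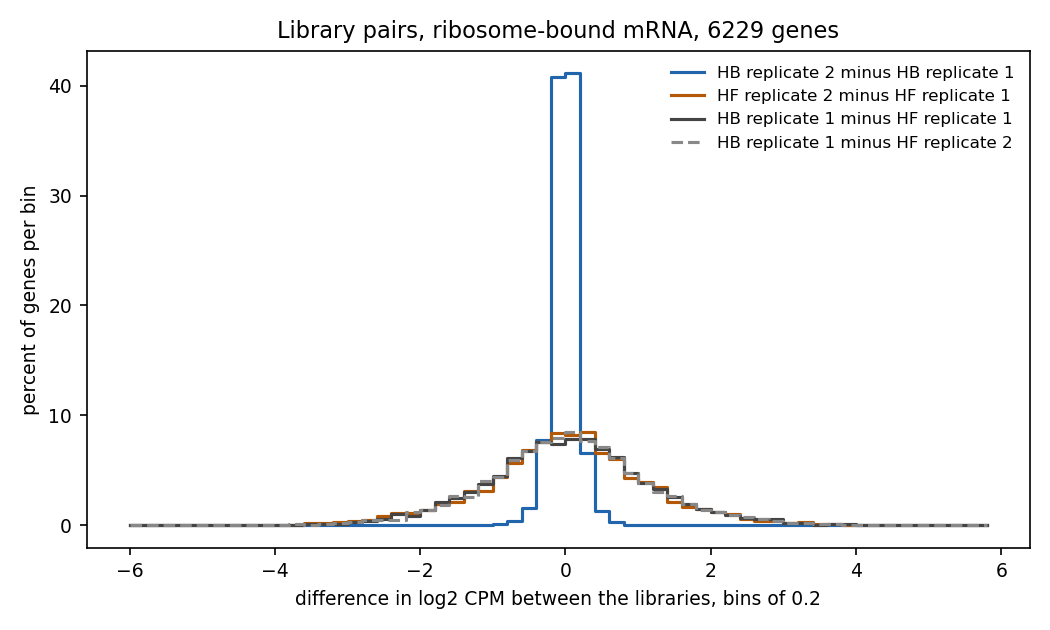
Differences in log2 CPM between pairs of ribosome-bound libraries over 6229 genes, as percent of genes per bin of 0.2. The difference within the HB pair is narrow (standard deviation 0.174), and the difference within the HF pair (1.14) is as wide as the differences between diets (1.11 to 1.15).

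With the spread between the HF libraries as the only measure of error, no gene passed the test between diets. EdgeR's quasi-likelihood test with Benjamini-Hochberg adjustment, fitted to the 2 HF libraries and the summed HB library over 10986 genes, called 0 of the 6229 genes at an adjusted p of 0.05 (0% of all genes tested were called), and the smallest adjusted p among them was 0.744. Without adjustment 182 genes had a p under 0.05, 93 higher and 89 lower in HB, and other models gave between 0 and 479 calls. The ribosome-bound levels are therefore given as a description, and tests are given for total mRNA, which the choice of genes did not use.

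In ribosome-bound mRNA, both HB libraries lay above both HF libraries for 2027 genes (32.5%; the same held for 34.9% of all genes tested) and below both for 1878 genes (30.1%, against 29% of all genes tested). For 2324 genes (37.3%) the diets overlapped. Since the 2 HB libraries count as about 1, these counts place 1 HB level above, below or between 2 HF libraries. A level drawn like the HF ones would also often lie outside them. Lying above or below HF is therefore no measure of a diet difference, here and in the gene lists. A gap of at least 2-fold between the nearest HB and HF libraries was found for 367 genes above HF (5.89%, against 15.4% of all genes tested) and for 417 genes below it (6.69%, against 8.9% of all genes tested). The median log2 change was -0.01, and 90% of genes lay between -1.69 and 1.44. At the read minimum itself, the 33 genes whose lowest library had 21 reads had a median log2 change of -0.50 (-4.28 to 2.67), and the 22 genes left out with 20 reads in their lowest library had a median of -0.42 (-3.33 to 2.61).

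The widest gap above HF was that of Elovl6, followed by Hcn3 and Pltp, and 4 of the 12 widest (Elovl6, Fasn, Fdps and Acacb) were listed genes of fat or sterol synthesis. The standard errors (SE) below were derived from the log2 change and the F statistic of the ribosome-bound fit. Since HB had no replicate there, they hold no spread between HB libraries and are no measure of precision between diets. Elovl6 (chr3:129532386-129638495, GRCm38.p6), which lengthens palmitate to stearate, was at 267 and 162 CPM in HF and at 3267 and 3182 CPM in the HB ribosome-bound libraries, a log2 change of 3.91 (SE 0.46). In total mRNA it was at 75.5 and 44.1 CPM in HF and 369 and 60.3 CPM in HB, so the HB libraries lay on both sides of the first HF library, and edgeR's quasi-likelihood test with Benjamini-Hochberg adjustment gave an adjusted p of 0.0553. Fasn (chr11:120805958-120825166), the fatty acid synthase, was at 161 and 137 CPM in HF and at 1468 and 1496 CPM in HB in ribosome-bound mRNA, a log2 change of 3.31 (SE 0.38). Its total mRNA rose by 2.96 on the log2 scale, from 139 and 199 CPM in HF to 2263 and 369 CPM in HB (edgeR adjusted p = 0.0118). Fdps (chr3:89093588-89101967), which makes farnesyl diphosphate, was at 189 and 94.3 CPM in HF and 1541 and 1519.7 CPM in HB in ribosome-bound mRNA, a log2 change of 3.43 (SE 0.52). Its total mRNA rose by 3.24, from 34.3 and 27.1 CPM in HF to 401 and 179 CPM in HB (edgeR adjusted p = 0.00401). The groups did not overlap for Fasn or Fdps in either kind of library, and both total mRNA calls held when any 1 of the 4 mRNA libraries was left out.

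Pltp, the phospholipid transfer protein of plasma lipoproteins, was at 34.6 and 15.0 CPM in HF and 320.4 and 332 CPM in HB in ribosome-bound mRNA. Its total mRNA was at 60.8 and 46.4 CPM in HF and 142 and 120 CPM in HB, a rise of 1.29 on the log2 scale with an edgeR adjusted p of 0.0135, which became 0.0602 without the first HF mRNA library and 0.158 without the second. Acacb, the acetyl-CoA carboxylase at the mitochondrial surface, was at 131 and 20.3 CPM in HF and 778 and 760 CPM in HB. Its total mRNA was not called (edgeR adjusted p = 0.066). The channel gene Hcn3 was at 12.7 and 7.86 CPM in HF and 121 and 123 CPM in HB in ribosome-bound mRNA. Its span (chr3:89146775-89160284) overlaps that of Pklr (chr3:89136122-89146815). Pklr lay above HF as well, at 86.3 and 67.7 CPM in HF and 322 and 314 CPM in HB. Whether reads of Pklr are counted in Hcn3 was not tested. Gbp11, a guanylate-binding protein, was at 30.8 and 10.1 CPM in HF and 212 and 214 CPM in HB, with overlapping total mRNA (17.0 and 13.1 CPM in HF, 22.1 and 8.06 CPM in HB). Across the 12 genes, which also include Pm20d1, Ppid, Fam213a, Upf3b and Sgsm3, the log2 changes were 2.68 to 3.91. In total mRNA 6 of the 12 were called higher in HB (against 11.3% of all 12817 genes tested in total mRNA) and 1 was called lower (against 10.1%).

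The 1 gene called lower was Upf3b, a factor of nonsense-mediated decay. It was at 10.3 and 16.0 CPM in HF and 103 and 93.8 CPM in HB in ribosome-bound mRNA, but at 27.1 and 26.2 CPM in HF and 13.4 and 10.4 CPM in HB in total mRNA. That fall of 1.16 on the log2 scale had an edgeR adjusted p of 0.0214, which was 0.130 without the first HF mRNA library and 0.0762 without the second.

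The 12 widest gaps below HF were of another kind. Lcn2, the iron-carrier-binding lipocalin of the acute-phase response, was at 101 and 45.8 CPM in HF and 3.36 and 4.08 CPM in HB in ribosome-bound mRNA, a log2 change of -4.28. Ppp1r3c, which targets a protein phosphatase to glycogen, was at 65.9 and 58.8 CPM in HF and 5.59 and 3.96 CPM in HB. Of these 12 genes, 7 had 30 or fewer reads in an HB library, the lowest 21, so their HB levels lie close to the read minimum. The long noncoding RNA Kcnq1ot1 was among them, at 33.4 and 102 CPM in HF and 3.84 and 2.88 CPM in HB.

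Of the 12 genes furthest below HF, 3 were called higher in HB in total mRNA and 1, Ppp1r3c, was called lower. Mipep, which trims proteins imported into mitochondria, was at 72.6 and 42.0 CPM in HF and 4.47 and 4.08 CPM in HB in ribosome-bound mRNA, but at 15.8 and 16.8 CPM in HF and 43.2 and 48.1 CPM in HB in total mRNA, where it rose by 1.49 on the log2 scale (edgeR adjusted p = 0.00777; 0.0746 without the first HF mRNA library). Atp5f1, a stalk subunit of the mitochondrial ATP synthase, was at 29.3 and 80.5 CPM in HF and 3.52 and 2.64 CPM in HB in ribosome-bound mRNA, against 78.2 and 102 CPM in HF and 334 and 261 CPM in HB in total mRNA, a rise of 1.73 (edgeR adjusted p = 0.00709; 0.0555 without the first HF mRNA library). The other gene of this kind was Akr1c20, an aldo-keto reductase, with 52.4 and 47.2 CPM in HF and 6.71 and 5.53 CPM in HB on ribosomes. Its total mRNA rose by 1.30 (edgeR adjusted p = 0.0139), a call lost without the first HF mRNA library (0.069) or the second (0.115). The call of Ppp1r3c, a fall of 1.51 (edgeR adjusted p = 0.0479), was lost without the first HF library (0.801), the first HB library (0.258) or the second HB library (0.131).

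**Figure D2:**
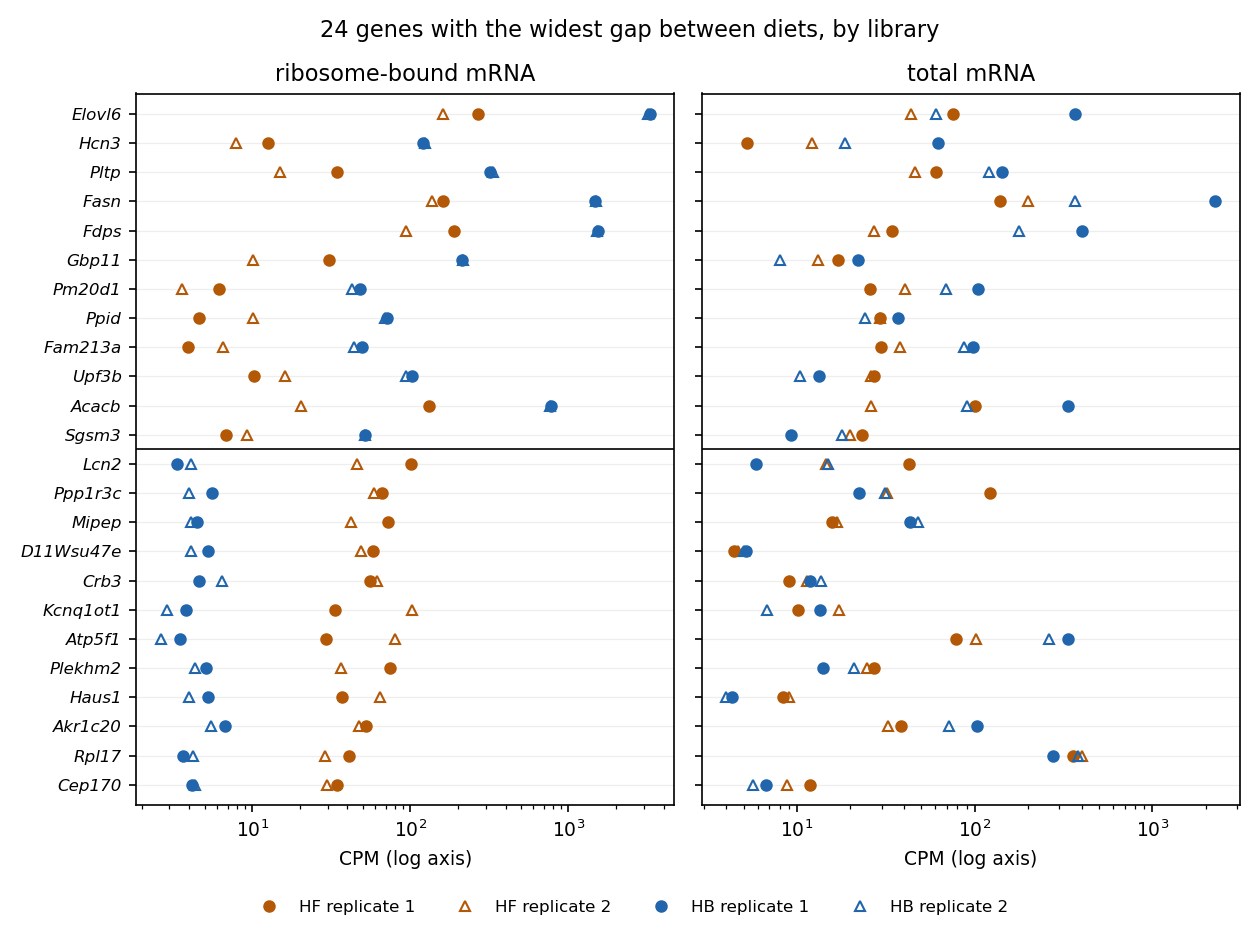
CPM on a log axis in each library for the 12 genes furthest above and the 12 furthest below HF in ribosome-bound mRNA (left) and the same genes in total mRNA (right), each point 1 library. The HB points sit on top of each other on the left, and in total mRNA Mipep, Atp5f1 and Akr1c20 lie on the opposite side of HF.

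Cholesterol synthesis was the gene list whose members lay furthest above HF. Of 24 genes of the pathway, its uptake and its feedback control, 16 met the read minimum, and both HB ribosome-bound libraries lay above both HF libraries for 14 of them and below for 1. The median log2 change on ribosomes was 1.65, and it was 1.59 without the first HF library and 1.95 without the second. In total mRNA 14 of the 16 were called higher in HB and 0 lower (edgeR, Benjamini-Hochberg), with a median log2 change of 1.87. With total counts in place of TMM scaling 13 were called higher. The calls numbered 9 without the first HF mRNA library, 12 without the second, 12 without the first HB library and 14 without the second, and 8 held in all of these.

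At the head of the pathway, Hmgcs1, which makes HMG-CoA, was at 134 and 74.7 CPM in HF and 579 and 564 CPM in HB on ribosomes. Mvd, which makes isopentenyl diphosphate, was at 49.3 and 10.9 CPM in HF and 116 and 102 CPM in HB, and its total mRNA, at 4.42 and 4.00 CPM in HF and 36.2 and 11.8 CPM in HB, rose by 2.51 on the log2 scale (edgeR adjusted p = 0.00822). Both genes lay higher in both HB ribosome-bound libraries than in either HF library. The total mRNA call of Hmgcs1 (a rise of 1.24, edgeR adjusted p = 0.02) was lost without either HF library (0.150 and 0.0853) or the first HB library (0.0616).

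The later steps lay in the same direction on ribosomes. Dhcr7, which reduces a double bond of the sterol ring, had 16.6 and 37.2 CPM in HF against 82.3 and 94.8 CPM in HB. Sc5d, the desaturase before it, had 61.5 and 84.8 CPM in HF and 220.2 and 212 CPM in HB. The total mRNA of Dhcr7 and Sc5d rose by 1.88 and 2.21 on the log2 scale (edgeR adjusted p = 0.00483 and 0.00848), and each call held without any 1 mRNA library. Lss, the lanosterol synthase, showed how far the HF libraries could differ, with 5.48 and 72.2 CPM in HF and 74.8 and 80.6 CPM in HB.

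Genes of sterol control and transport were also apart. Insig1, which holds the sterol regulatory element binding proteins in the endoplasmic reticulum, was at 62.3 and 40.2 CPM in HF and 311 and 317 CPM in HB on ribosomes, and its total mRNA rose by 1.91 on the log2 scale (edgeR adjusted p = 0.0137), a call that held without any 1 library. Stard4, a carrier of cholesterol inside cells, was the exception, with 22.3 and 39.1 CPM in HF and 5.91 and 5.29 CPM in HB on ribosomes. Its total mRNA rose by 1.93 (16.6 and 26.4 CPM in HF, 123 and 41.1 CPM in HB; edgeR adjusted p = 0.0157), a call lost without the first HB library (0.0941).

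Promoters are shown for the cholesterol genes in which a core of the sterol regulatory element was found, since these genes lay apart together. Of 35 genes of sterol and fat synthesis 25 had a promoter in the RefSeq table (GRCm38.p6), which spans 250 bases before to 50 bases after each start. The letters CACCCCAC, on either strand, occurred in 2.87% of all 32851 promoters in that table and in 3 of the 33 promoters of the 25 genes. Too few genes were matched to compare the shares. The 3 genes were Acat2, Hmgcs1 and Gpam, and Gpam, a triglyceride gene, overlapped between diets on ribosomes. No core was found in the promoters of Elovl6, Fasn, Fads2, Insig1, Mvd, Sc5d or Thrsp, among others. The core is in capitals below, in Acat2 (chr17:12960873-12960932, minus strand, 181 bases before the start) and in Hmgcs1 (chr13:119690189-119690248, plus strand, 136 bases before the start), each written in the direction of the gene.
Acat2: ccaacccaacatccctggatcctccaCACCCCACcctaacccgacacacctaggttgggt
Hmgcs1: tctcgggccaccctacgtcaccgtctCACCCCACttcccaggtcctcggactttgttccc
Acat2, which joins acetyl-CoA units for the pathway, was at 39.5 and 34.5 CPM in HF and 78.6 and 81.6 CPM in HB on ribosomes. Its total mRNA rose by 1.71 on the log2 scale (edgeR adjusted p = 0.0072; 0.0551 without the first HF mRNA library). The match of these letters describes the sequence only.

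Fatty acid and triglyceride synthesis was next, with 19 of 25 listed genes over the read minimum, of which 13 lay above and 1 below HF in ribosome-bound mRNA. Their median log2 change on ribosomes was 0.97, and it was 1.57 without the first HF library and 0.90 without the second. In total mRNA 11 were called higher and 1, Mlxipl, lower (edgeR, Benjamini-Hochberg), with 8 higher and 2 lower under total-count scaling. The 11 became 8 without the first HF mRNA library, 8 without the second, 6 without the first HB library and 11 without the second.

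Along this pathway, genes that make and desaturate fatty acids lay above HF and several that join them to glycerol overlapped. The desaturase Fads2 was at 24.1 and 15.7 CPM in HF and 126 and 129.6 CPM in HB on ribosomes, and its total mRNA, at 53.4 and 50.6 CPM in HF and 891 and 351 CPM in HB, rose by 3.58 on the log2 scale (edgeR adjusted p = 0.00401), a call held without any 1 library. Scd1, which makes oleate, was at 3101 and 658 CPM in HF and 7854 and 7942 CPM in HB on ribosomes. Thrsp, a regulator of fat synthesis, was at 805 and 1094 CPM in HF and 5921 and 5933 CPM in HB. Both rose in total mRNA, by 1.90 and 2.17 (edgeR adjusted p = 0.0225 and 0.011), and both calls were lost without the first HB library (0.180 and 0.054), the library with the highest values.

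Fads1, the other desaturase of long fatty acids, was at 61.1 and 3.78 CPM in HF and 234 and 222 CPM in HB on ribosomes, a wide HF pair below a narrow HB pair. Slc25a1, the citrate carrier that supplies the pathway, was at 254 and 115 CPM in HF and 552 and 595 CPM in HB. By contrast Dgat2, Agpat2, Lpin1 and Gpam, which build glycerolipids, overlapped between diets on ribosomes. Dgat2, which adds the last fatty acid, had 389 and 347 CPM in HF against 350.3 and 361 CPM in HB. Agpat2, which makes phosphatidic acid, had 347 and 274 CPM in HF against 312 and 281 CPM in HB. The regulator Srebf1 had 121 and 350.5 CPM in HF and 399.5 and 396 CPM in HB on ribosomes, with overlapping total mRNA (edgeR adjusted p = 0.361).

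**Figure D3:**
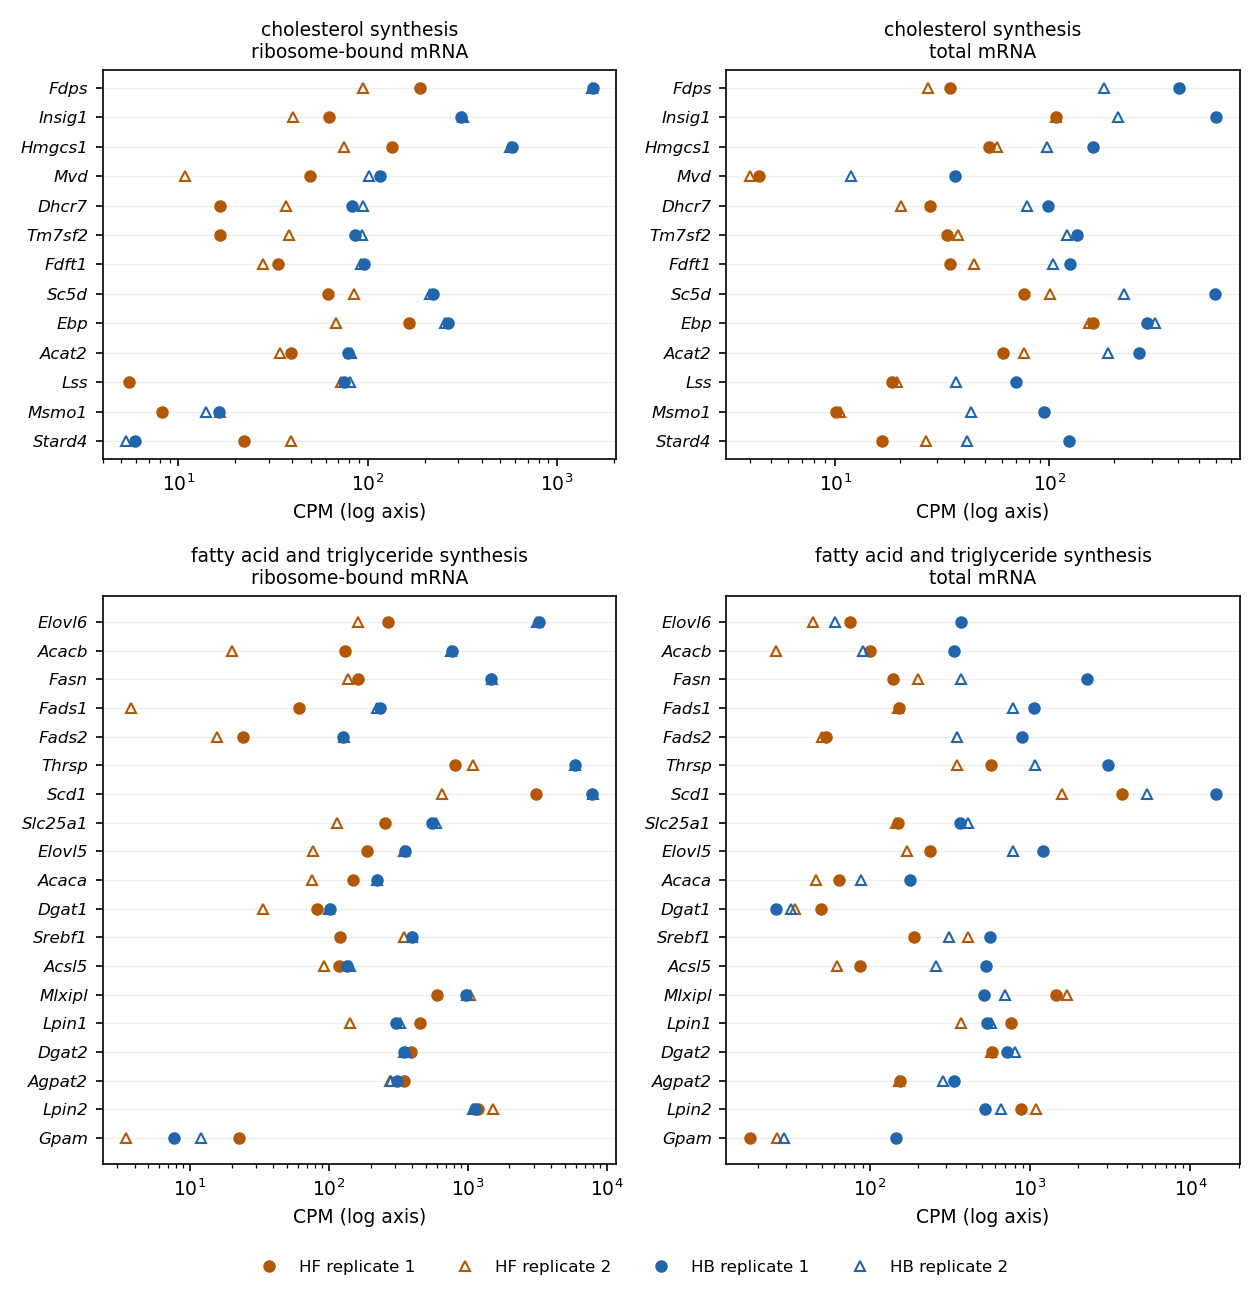
CPM on a log axis in each library for genes of cholesterol synthesis and the 19 fatty acid and triglyceride genes, in ribosome-bound mRNA (left) and total mRNA (right), each point 1 library and genes ordered by log2 change on ribosomes. HB lies above HF on the left for most cholesterol genes shown and for 13 of 19 fat genes, while Stard4 lies below.

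The respiratory chain and ATP synthase had smaller differences in many genes. Of 58 subunit genes 57 met the read minimum, and 41 lay above and 6 below HF on ribosomes, 9 and 2 of them by at least 2-fold. Over all 6229 genes 32.5% lay above and 30.1% below, 5.89% and 6.69% by at least 2-fold. The median log2 change was 0.67, and 0.70 and 0.73 without the first and the second HF library. All 7 measured subunits of complex III lay above HF, as did 16 of 22 in complex I, 8 of 10 in complex IV and 2 of 4 in complex II, whereas the ATP synthase was split, with 8 of 13 above and 4 below. Ndufb8 of complex I was at 42.5 and 39.9 CPM in HF and 170 and 192 CPM in HB on ribosomes. Cox7a2 of complex IV was at 3.94 and 23.9 CPM in HF and 108 and 109 CPM in HB. Of all genes tested in total mRNA 11.3% were called higher and 10.1% lower. In total mRNA 22 of the 57 were called higher and 0 lower (edgeR, Benjamini-Hochberg), but 12 higher and 1 lower under total-count scaling, and 5 higher without the first HF mRNA library and 9 without the second. The call of Ndufb8 (edgeR adjusted p = 0.0399) was lost without the first HF library (0.343), the second HF library (0.196) or the second HB library (0.0645), and that of Cox7a2 (0.0268) without the first or second HF library (0.340 and 0.0864).

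Of the 25 citric acid cycle genes, all over the read minimum, 9 lay above and 3 below HF on ribosomes, where 32.5% of all 6229 genes lay above and 30.1% below. In total mRNA 11 were called higher (against 11.3% of all genes tested by edgeR; 8 under total-count scaling; 6 without the first HF mRNA library). Cs, the citrate synthase, was at 31.8 and 22.4 CPM in HF and 123 and 120.4 CPM in HB on ribosomes. Mdh2, the mitochondrial malate dehydrogenase, was at 66.8 and 66.6 CPM in HF and 166 and 172 CPM in HB, and its total mRNA rose by 1.73 on the log2 scale (edgeR adjusted p = 0.00596), a call held without any 1 library. The call of Cs in total mRNA (a rise of 1.10, edgeR adjusted p = 0.0207) was lost without the first or second HF library (0.157 and 0.192).

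Fatty acid oxidation and ketone body genes were less uniform. Of 35 listed genes 32 met the read minimum, with 15 above and 9 below HF on ribosomes and a median log2 change of 0.24, and 15 of them were called higher and 0 lower in total mRNA (edgeR; 13 under total-count scaling; 7 and 9 without the first and second HF mRNA library). Cyp4a14 and Cyp4a10, which hydroxylate the end of fatty acids, lay lower, at 1168 and 276 CPM in HF against 88.5 and 93.2 CPM in HB, and at 2955 and 1082 CPM in HF against 438 and 445 CPM in HB. Neither was called in total mRNA (edgeR adjusted p = 0.126 and 0.175).

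The enzymes that use betaine and make S-adenosylmethionine lay on both sides of HF on ribosomes. Of 20 listed genes 17 met the read minimum, with 5 above and 8 below HF (against 32.5% above and 30.1% below over all 6229 genes) and a median log2 change of -0.41, which turned to 0.04 without the first HF library. Bhmt, the enzyme that takes the methyl group from betaine, was at 5212 and 1716 CPM in HF and 925 and 924 CPM in HB on ribosomes, and at 3355 and 1424 CPM in HF and 2843 and 3430 CPM in HB in total mRNA (edgeR adjusted p = 0.486). Mat1a, which makes S-adenosylmethionine, overlapped on ribosomes, with 3601 and 2538 CPM in HF and 3513 and 3541 CPM in HB. Gnmt and Pemt, which spend it on glycine and on phosphatidylethanolamine, had log2 changes of -1.18 and -1.04 on ribosomes, with both HB libraries below both HF libraries, and rises of 1.96 and 1.35 in total mRNA (edgeR adjusted p = 0.0072 and 0.0128). The call of Gnmt held without any 1 library, and that of Pemt was lost without the first HF library (0.157).

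Folate one-carbon enzymes were the list of at least 10 members with the lowest median on ribosomes, -0.67 over 11 of 18 genes, and -0.55 and -0.35 without the first and second HF library. Of the 11, 1 lay above and 7 below HF, while in total mRNA 3 were called higher and 0 lower (edgeR; under total-count scaling 2 higher and 3 lower; 0 and 1 higher without the first and second HF library). Mthfd1, which interconverts folates in the cytosol, was at 139 and 139.8 CPM in HF and 67.9 and 72.2 CPM in HB on ribosomes, below HF, and at 115 and 105 CPM in HF and 269.7 and 204 CPM in HB in total mRNA, above it (edgeR adjusted p = 0.0234; 0.158, 0.192 and 0.0537 without the first HF, the second HF and the first HB library).

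Of 21 listed m6A writers, erasers and readers, 20 were in the table and 11 met the read minimum, 3 above and 4 below HF on ribosomes, with a median log2 change of -0.43 that went to 0.00 without the second HF library. Alkbh5, an eraser, was at 13.5 and 5.59 CPM in HF and 35.0 and 41.4 CPM in HB on ribosomes. Ythdc1, the nuclear reader, was at 157 and 159.9 CPM in HF and 106 and 104 CPM in HB. Its total mRNA fell by 1.31 on the log2 scale (edgeR adjusted p = 0.0114), a call lost without the first HF library (0.107). Fto, the other eraser, overlapped on ribosomes (5.82 and 26.6 CPM in HF, 9.11 and 11.5 CPM in HB).

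Genes of the translation machinery differed by group. Of 78 listed ribosomal protein genes 33 met the read minimum, and 6 lay above and 14 below HF on ribosomes, with a median log2 change of -0.52 that stayed between -0.61 and -0.28 in the 7 settings tried. In total mRNA 3 of them were called higher and 0 lower (edgeR; 2 and 1 under total-count scaling; 1 higher without the first or second HF library). Rpl17, a protein of the large subunit, was at 40.9 and 29.0 CPM in HF and 3.68 and 4.204 CPM in HB on ribosomes, while Rpl19, another, was at 8.90 and 12.7 CPM in HF and 26.2 and 27.0 CPM in HB. Ribosomal protein genes have many near-identical copies in the genome, so their counts are uncertain. Of 17 aminoacyl-tRNA synthetases 8 lay above and 2 below HF, with a median of 0.07 that turned to -0.08 at its lowest. Eprs, which charges 2 amino acids, was among those below, at 242 and 254 CPM in HF and 71.8 and 72.0 CPM in HB on ribosomes. Of 41 initiation and elongation factors 15 lay above and 10 below HF on ribosomes, with a median log2 change of 0.10. Eef2, which moves the ribosome along the mRNA, was at 606 and 721 CPM in HF and 372 and 377 CPM in HB on ribosomes, and its total mRNA rose by 1.44 on the log2 scale (edgeR adjusted p = 0.00942; 0.0558 without the first HF library).

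Proteasome and splicing genes were listed as well. Of the 34 proteasome genes 13 lay above and 5 below HF on ribosomes, and 15 were called higher in total mRNA (edgeR; 9 under total-count scaling; 4 and 5 without the first and second HF library). Of 33 splicing factors 10 lay above and 10 below HF on ribosomes, and their median of 0.09 turned to -0.02 without the second HF library, while 14 were called lower in total mRNA (edgeR; 17 under total-count scaling; 5 without the first HF library).

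The acute-phase list holds proteins that the liver secretes in inflammation, and also genes that are not secreted proteins, such as Il1r1 and Stat3. Il1r1 and Stat3 were among its 4 genes at least 2-fold below HF on ribosomes, where 6.69% of all 6229 genes lay. For comparison, 32.5% of all 6229 genes lay above and 30.1% below HF by any gap. In total mRNA 11.3% of all genes tested were called higher and 10.1% lower. Of 15 genes over the read minimum 2 lay above and 9 below HF, with a median log2 change of -0.58 (-0.63 and -0.73 without the first and second HF library), and in total mRNA 2 were called higher and 3 lower (edgeR; 1 and 4 under total-count scaling). Il1r1, the receptor for interleukin-1, was at 252 and 158 CPM in HF and 38.2 and 38.1 CPM in HB on ribosomes, and at 394 and 319 CPM in HF and 27.2 and 64.1 CPM in HB in total mRNA, where it fell by 2.97 on the log2 scale (edgeR adjusted p = 0.00401). That call held without any 1 library. Saa4, a serum amyloid A protein, was at 3008 and 2295 CPM in HF and 632 and 618 CPM in HB on ribosomes, and its total mRNA fell by 1.28 (edgeR adjusted p = 0.0283), a call lost without the first HF library (0.298) or the first HB library (0.127). In tissue, fewer cells of a type and less RNA per cell cannot be told apart. Of the markers of other cell types, 8 of 16 Kupffer cell and macrophage genes, 7 of 12 sinusoidal endothelial genes, 6 of 15 stellate cell genes and 1 of 10 neutrophil genes met the read minimum, and the summed level of the macrophage list was 472 and 279 CPM in HF and 419 and 399 CPM in HB on ribosomes. The summed endothelial, stellate and neutrophil lists overlapped between diets there too. In total mRNA none of these sums, the macrophage sum included, overlapped. Macrophage sums were 317 and 351 CPM in HF and 459 and 472 CPM in HB. Neutrophil sums were 19.1 and 46.0 CPM in HF and 7.13 and 8.25 CPM in HB. There edgeR called 5 of 15 tested macrophage genes higher (against 11.3% of all genes tested) and 4 of 4 tested neutrophil genes lower (against 10.1%). Endothelial sums were lower in HB and stellate sums higher. Red blood cell markers, 3 of 8 over the read minimum, did not overlap, with sums of 422 and 318 CPM in HF and 697 and 716 CPM in HB on ribosomes and 383 and 322 CPM in HF and 546 and 1620 CPM in HB in total mRNA. Cholangiocyte markers, 1 of 8 over the minimum, summed to 49.0 and 91.0 CPM in HF and 19.5 and 18.7 CPM in HB on ribosomes and overlapped in total mRNA. The part of any of these cell types in the acute-phase levels was not tested.

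Secreted carriers and apolipoproteins hold the highest levels. By RPKM, the read count per kilobase of transcript scaled to library size, the 5 highest genes were Apoa2, Apoc1, Alb, Apoc3 and Apoa1 in HF, and Apoc1, Apoa2, Apoc3, Apoa1 and Ttc36 in HB. Apob, the core protein of very low-density lipoprotein, was at 3425 and 2607 CPM in HF and 2481 and 2448 CPM in HB on ribosomes. Of 23 apolipoprotein and lipoprotein genes 11 lay above and 6 below HF on ribosomes, with a median log2 change of 0.23. Apoc1 was at 18120 and 17788 CPM in HF and 26552 and 26870 CPM in HB on ribosomes, and at 12673 and 14378 CPM in HF and 5267 and 8480 CPM in HB in total mRNA, where it was not called. The albumin and plasma carrier genes had 6 of 25 above and 13 below HF, with a median of -0.17.

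Bile acid synthesis and transport genes had 6 of 23 above and 11 below HF on ribosomes. Cyp8b1, the sterol hydroxylase that makes cholic acid, was at 119 and 15.3 CPM in HF and 5.91 and 6.13 CPM in HB on ribosomes, but at 113 and 62.1 CPM in HF and 237 and 543 CPM in HB in total mRNA, a rise of 2.15 on the log2 scale (edgeR adjusted p = 0.00906) that held without any 1 library. Cyp7a1, the rate-limiting enzyme of bile acid synthesis, was at 56.8 and 11.6 CPM in HF and 9.91 and 9.97 CPM in HB on ribosomes, with overlapping total mRNA. Cyp2a22, a cytochrome P450, lay lower in both kinds of library, at 679.6 and 862 CPM in HF and 203 and 205 CPM in HB on ribosomes, with a fall of 1.58 in total mRNA (edgeR adjusted p = 0.00651) that held without any 1 library.

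**Figure D4:**
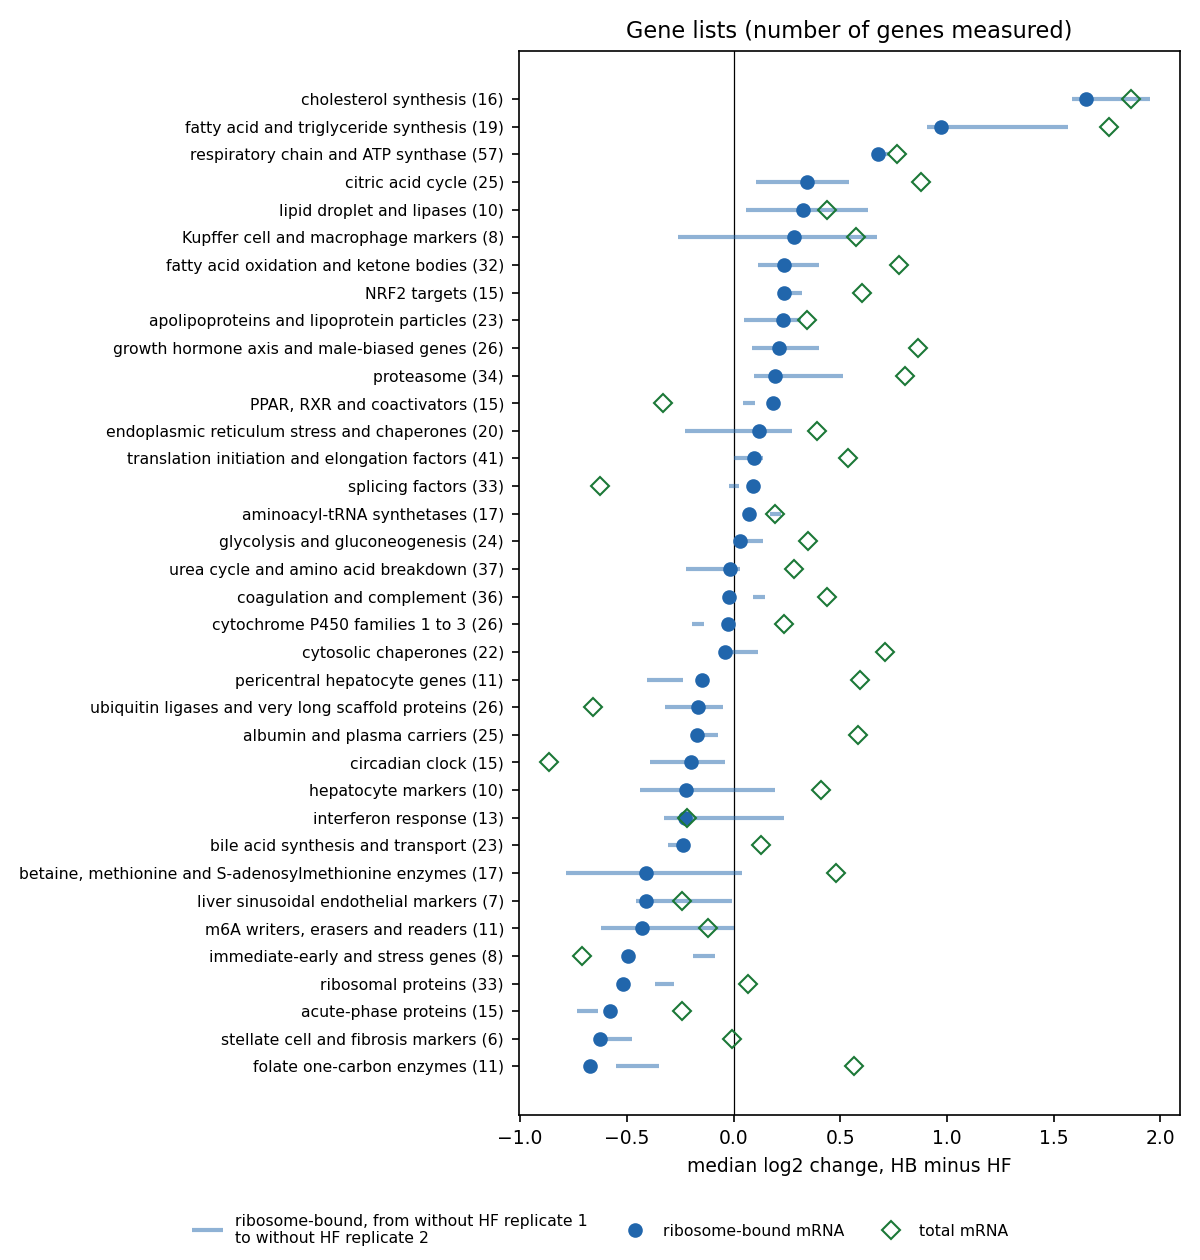
Median log2 change (HB minus HF) of each gene list with at least 6 measured genes, in ribosome-bound mRNA (dots) and total mRNA (open diamonds), the bar joining the ribosome-bound medians found without each HF library in turn, which need not enclose the dot. Cholesterol synthesis stands highest on ribosomes (1.65) and folate one-carbon enzymes lowest (-0.67).

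The total mRNA of all these genes, which were not chosen by it, was called higher in HB for 769 of 6216 tested (12.4%) and lower for 888 (14.3%), against 11.3% and 10.1% of all genes tested. These shares depend on scaling, since scaling by total counts instead of TMM shifted the median log2 change over all genes by -0.29 and gave 402 higher and 1540 lower, so that the higher calls went from 46.4% to 20.7% of calls. Of the 366 tested genes at least 2-fold above HF on ribosomes, 80 (21.9%) were called higher and 18 (4.92%) lower in total mRNA. Of the 415 tested genes at least 2-fold below, 55 (13.3%) were called higher and 76 (18.3%) lower, and of the genes in neither class 11.7% were called higher and 14.6% lower. The counts of 80, 18, 55 and 76 fell to 25, 2, 10 and 28 without the first HF mRNA library, and 17, 2, 8 and 20 held without any 1 mRNA library. Under total-count scaling they were 43, 39, 40 and 147, and the genes above HF on ribosomes then had 43 called higher and 39 lower.

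Genes called higher in total mRNA and at least 2-fold above HF on ribosomes whose call held without any 1 mRNA library included Cyp4a12b, Dhcr7, Elovl2, Fads1, Fads2, Fasn, Fdps, Gpd1, H2-Q10, Hsd17b12, Insig1, Mdh2, Mvd, Sc5d, Sqrdl and Tm7sf2. The opposite combination, below HF on ribosomes and higher in total mRNA, held for Abat, Akr1c19, Car5a, Cyp2c29, Cyp8b1, Pcca, Prep and Psmb7. Abat, which breaks down gamma-aminobutyrate, was at 88.5 and 71.5 CPM in HF and 13.4 and 9.61 CPM in HB on ribosomes, and rose by 1.95 on the log2 scale in total mRNA (edgeR adjusted p = 0.00817). Across the 6216 genes the log2 changes in the 2 kinds of library had a Pearson correlation of 0.13, a description only, since genes are not independent replicates. With log2 transcript length, the log2 change had a correlation of -0.27 in total mRNA and -0.08 on ribosomes. Among 26 measured ubiquitin ligases and very long scaffold proteins, edgeR called 0 higher and 5 lower in total mRNA. The part of transcript length in the total mRNA calls of the gene lists was not tested.

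**Figure D5:**
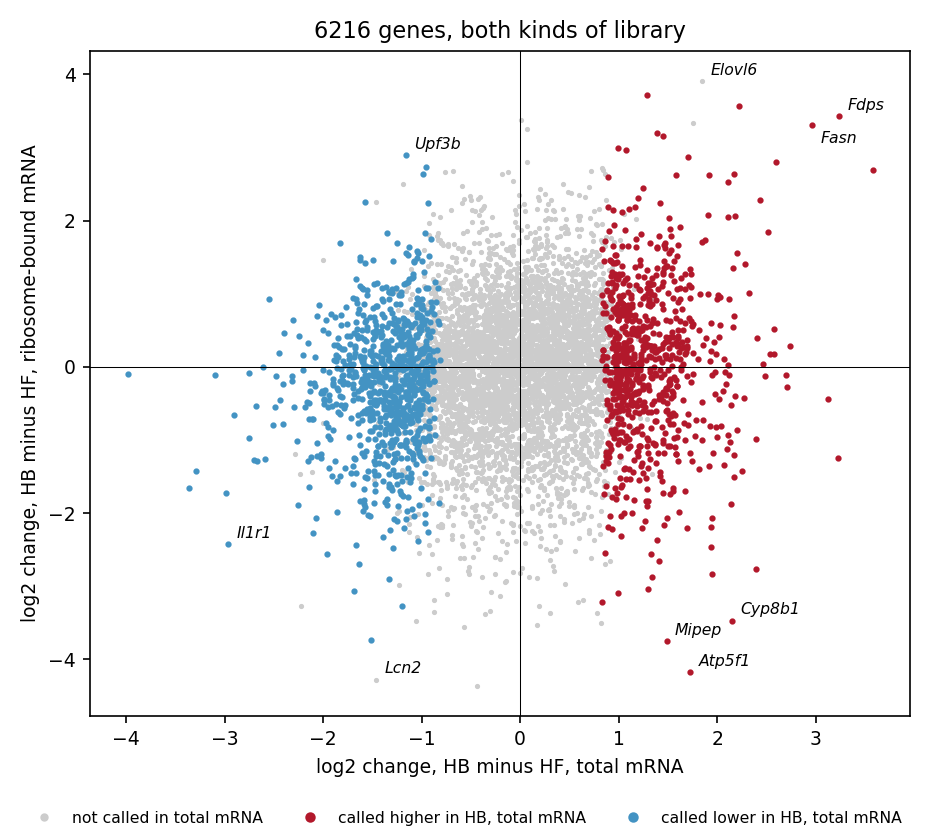
Log2 change (HB minus HF) in ribosome-bound mRNA against that in total mRNA for 6216 genes, each point 1 gene, coloured by the total mRNA call. Called genes lie on both sides of 0 on the ribosome axis (Pearson correlation 0.13), with Fdps and Fasn at the upper right, Il1r1 at the lower left and Mipep, Atp5f1 and Cyp8b1 at the lower right.

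The spread between the HF libraries was smaller in the deepest genes. The standard deviation of the log2 difference between them was 1.19 for the 629 genes with a mean of at most 100 reads, 1.36 for the 2313 genes from 100 to 300 reads, 1.05 for the 2239 genes from 300 to 1000, 0.706 for the 718 genes from 1000 to 3000 and 0.613 for the 330 genes above that. Even among the 1048 genes with over 1000 mean reads, the HF pair lay over 2-fold apart for 10.8%. The mean is taken over both diets, so a gene can pass a depth through the diet in which it is high.

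Several genes with over 1000 mean reads belong to no list above and were picked after their values were seen. Ces3b, a carboxylesterase, was at 789 and 482 CPM in HF and 4209 and 4179 CPM in HB on ribosomes, and its total mRNA was not called (edgeR adjusted p = 0.108). Mug1, a plasma protease inhibitor, was at 6883 and 10925 CPM in HF and 1439 and 1432 CPM in HB on ribosomes, and was not called either (0.678). Aldh1a1, a retinaldehyde dehydrogenase, was at 429 and 276 CPM in HF and 54.5 and 56.6 CPM in HB on ribosomes, and at 634 and 615 CPM in HF and 1765 and 1562 CPM in HB in total mRNA, a rise of 1.41 on the log2 scale (edgeR adjusted p = 0.00989; 0.052 without the first HF library).

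The m6A peaks are a readout of the same genes that the choice did not use. The authors called peaks per library, 22060 and 24141 in HF and 22086 and 25718 in HB. A peak over the gene in both libraries of a diet was found for 50.2% of the 6229 genes in HF and 46.9% in HB, and for 46.9% and 46.1% of the other genes tested in total mRNA. Of the genes at least 2-fold above HF on ribosomes 51.0% had such a peak in HF and 44.1% in HB. Of those at least 2-fold below it 57.1% had one in HF and 56.6% in HB, against 49.6% and 46.4% of genes in neither class. With peaks of at least 10-fold enrichment the shares over all 6229 genes were 26.5% in HF and 24.5% in HB. Elovl6, Il1r1, Upf3b and Abat had a peak in all 4 libraries, and Fasn and Fdps in none of them. The classes also differed in length and depth, with a median transcript of 2657 bases and a median of 292 reads above HF, 2872 bases and 190 reads below it, and 2697 bases and 337 reads in neither class, and the part of these in the peak shares was not tested.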

How the data were processed

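The deposited read count is, per the file headers, the reads assigned to a gene over all its splice variants, which the authors did not normalize, and the deposited RPKM divides it by the longest transcript and the library's reads. The deposited m6A peak lists give a pileup signal (coverage), the fold enrichment as a ratio, and the −log10 of the p-value and q-value per the file headers; only positions and the fold were used here. The submitters' processing notes list the build mm10 and, without the role of each, edgeR, HOMER 4.8, MACS2 2.1.0.20151222, HTSeq 0.6.0, HISAT2 2.0.4 and cutadapt 1.9.3.

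From the counts, genes with more than 20 reads in each of the 4 ribosome-bound libraries were kept. Fits ran on the whole table in edgeR 4.0.16 (R 4.3.3; TMM scaling, filterByExpr, quasi-likelihood F test, Benjamini-Hochberg adjustment, threshold 0.05): 2 HF libraries and the summed HB pair for ribosome-bound mRNA (10986 genes, 1 residual degree of freedom), and the 4 mRNA libraries for total mRNA (12817 genes, 2 residual degrees of freedom). CPM are counts scaled by edgeR's cpm after TMM, and log2 values use a prior count of 0.5. Above and below mean that both HB libraries lie on one side of both HF libraries, where the HB ribosome-bound pair counts as about 1 library. Nothing says that the pools came from separate animals. Alternatives used limma 3.58.1, DESeq2 1.42.0, other scalings and read minimums, a replicate block and leaving out libraries. Tables and figures used Python 3.11.15, pandas 2.3.3, SciPy 1.17.1 and matplotlib 3.10.9. The fits were tested on simulated data.

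Named genes are the 12 with the widest gap on each side (mean of at least 10 CPM), up to 4 per list by the same gap, the 5 highest by RPKM in each diet and a few set by name; others are named as steps of a pathway. The genes, the 40 lists and the tests were chosen with earlier results of these data known. Peaks were assigned by overlap of at least 1 base with the whole gene span in the GRCm38.p6 RefSeq table rather than with exons, as had been planned. Input samples of the m6A experiment were not used here. A few genes of the lists are counted in them but not reported singly here. Where the counting is not stated to use strand, overlapping genes cannot be told apart.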

Additional observations from a re-analysis of the deposited data

Results flagged for a closer look

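Of the 171 genes named by rule, 35 had both HB libraries below both HF libraries on ribosomes and above them in total mRNA, and 14 had the reverse. For 6 of these the gap was at least 2-fold in both kinds of library, all of them below on ribosomes. The log2 change on ribosomes was -4.18 for Atp5f1, -3.75 for Mipep, -3.47 for Cyp8b1, -2.07 for Psmb7, -1.42 for Cyp2c29 and -1.35 for Hspa1b, against changes of 1.73, 1.49, 2.15, 1.95, 2.26 and 1.92 in total mRNA. Of 28 genes that the text names outside that rule, 6 more lay at least 2-fold below HF on ribosomes and above it in total mRNA, 5 of them named for that combination. Their log2 changes on ribosomes were -2.83 for Abat, -2.76 for Akr1c19, -2.66 for Aldh1a1, -2.20 for Car5a, -2.19 for Prep and -1.87 for Pcca, against 1.95, 2.39, 1.41, 1.69, 1.94 and 2.14 in total mRNA. The difference between the 2 kinds of library was not tested for any of them. Most of the 171 were chosen by their gap on ribosomes, and how often these combinations occur over all 6229 genes was not counted. By edgeR's calls in total mRNA, 55 of 415 tested genes at least 2-fold below HF on ribosomes were higher (13.3%). The share over all 6216 tested genes was 12.4%. Hspa1b, a heat shock protein, was at 15.1 and 17.5 CPM in HF and 5.43 and 7.09 CPM in HB on ribosomes, and Psmb7, a proteasome subunit, was at 70.0 and 37.0 CPM in HF and 13.1 and 12.5 CPM in HB.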

How the results depend on the processing

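The ribosome-bound calls rest on how the spread is taken. Against 0 calls among the 6229 genes, 479 were called with the HB pair kept as 2 libraries, 116 in a model of 7 libraries with the mRNA libraries, 295 with DESeq2, and 5 (Elovl6, Fasn, Fdps, Thrsp and Ces3b) in a fit limited to the 6229 genes, which gave 0 when library sizes were recomputed over them (an alternative chosen after seeing the data). The remaining fits gave 0, the replicate block with the HB pair kept as 2 libraries included (0 calls, 768 at an unadjusted p under 0.05). Leaving out an HF library leaves no residual degree of freedom, so no test was made there. With more than 50 reads as the minimum, 275 genes lay at least 2-fold below HF. Leaving out 1 library gave 391 to 1039 genes at least 2-fold above and 494 to 924 below.

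In total mRNA, total-count scaling gave 402 higher and 1540 lower, and limma on log2(RPKM + 0.1) 433 and 1402. Leaving out 1 library gave 149 to 912 higher and 285 to 1161 lower. The replicate block gave 764 and 987, and crossed numbers (chosen after seeing the data) 856 and 1129. Deviations of same-numbered libraries had a correlation of -0.108 across genes. With 2 libraries per diet this cannot show whether the numbers pair libraries.

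Side by side, total counts gave 43 genes higher in both kinds, 147 lower in both, and 39 above on ribosomes and lower in mRNA. A minimum of more than 50 reads gave 11 of the last kind and 32 below on ribosomes and higher in mRNA. Leaving out 1 library gave 27 to 168 higher in both, 28 to 159 lower in both, 4 to 99 above and lower, and 10 to 118 below and higher. Shares of genes with m6A peaks were 26.5% in HF and 24.5% in HB at a fold of at least 10. Of 37 gene lists with at least 3 members, 25 kept the sign of their ribosome-bound median in all 7 settings and 12 did not. The cause of these shifts was not tested. On ribosomes, 13 values of named genes moved by more than the spread between the HF libraries and 1184 did not; 60 list medians did and 199 did not. Near the minimum of 20 reads, counting error limits the HB levels of the genes furthest below HF.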

Other observations

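Some genes were read often in 1 diet only and so fall outside the 6229. Of 10905 genes with more than 20 reads in any ribosome-bound library, 1019 passed the minimum in both HB libraries and neither HF library, 464 in both HF libraries and neither HB library, and 1751 in both HB libraries and 1 HF library. The near-identity of the 2 HB libraries bears on these counts, and its part in them was not tested.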
